A study of Mus musculus with 6 samples.

Results

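The genes described here are 10 mouse chemokine ligand genes, Ccl20, Cxcl5, Cxcl15, Cxcl2, Cxcl12, Cxcl17, Ccl25, Ccl2, Ccl4 and Ccl28, together with the regions of the deposited list that lay around them. They were chosen because the list places at least 1 region near each, so the presence of a region is how they were found and is not a result. A region counted where its centre fell inside the span of the gene or within 100 kb of it. By that rule 21 of the 6502 listed regions belonged to these 10 genes, which are 10 of the 39 chemokine ligand genes and of the 21779 protein-coding genes placed on the chromosomes. Of the other 29 ligand genes, 17 also had a region in this window, so the window alone does not set the 10 apart. With Ccl6, the 10 were the ligand genes that were the nearest protein-coding gene of such a region.

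The list comes from ATAC-seq, in which a transposase cuts and tags open chromatin, of basal stem cells sorted from mouse prostate as CD45-, CD31-, Sca-1+ and CD49f+. The inflamed group held 3 libraries, with the genotype given as POET3, from mice whose prostate expresses ovalbumin as a transgene and which received pre-activated splenocytes of OT-1 mice 7 days before the prostate was taken. The naive group held 3 libraries with the treatment given as control and the genotype as WT, although the extraction text speaks of POET3 mice for both groups, so inflammation and labelled genotype cannot be told apart. The promoter behind the transgene, the number of animals per library and any pooling are not given in the sources used here, and the gate removes CD45+ leukocytes by surface stain alone. Each region is a pair of coordinates on mm10, with no signal, direction, depth or value per library. The word "diff" in the list's name and edgeR among the tools are the reason it is read as regions that differed between inflamed and naive cells. No replicate error and no test between the groups can be given, a region cannot be called more or less open, and a shift in the mix of sorted cells cannot be told apart from a change within each cell. Of the marker genes of the sorted type, 4 of 5 (Krt5, Krt14, Trp63 and Ly6a) had a listed region within 100 kb and Itga6, which encodes CD49f, had none. Markers of cells outside the gate also had some, 2 of 3 for leukocytes, 2 of 2 for endothelium and 1 of 2 for fibroblasts and smooth muscle, as did 1 of 3 luminal markers. By the same window 42.9% of all protein-coding genes had a region. Positions alone do not measure expression, so the labelled cell type was not tested.

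Chemokines are small secreted proteins that steer migrating cells through G protein-coupled receptors. They are grouped by the spacing of their first cysteines into CC and CXC ligands, and the inflammatory ones sit in tandem gene clusters, while the homeostatic ones mostly stand alone. In barrier and glandular epithelia, inflammatory ligands are induced by NF-kB downstream of IL-1, TNF and microbial signals, and recruit neutrophils, monocytes and lymphocytes.

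The 21 regions made 24 gene and region pairs, since 1 region of the chromosome 5 cluster lay in the windows of 3 of the genes and another in those of 2. Of the 21, 10 had a width of 451 bases and 11 of 143 bases (47.6% and 52.4%), against 50.6% and 49.4% of all listed regions. What the widths mean is not given in the sources used here. By position, 1 region lay inside a described gene (Cxcl17), 3 inside another protein-coding gene and 17 outside protein-coding genes. Measured to the closest of the 10 genes, 7 regions were centred within 10 kb, 9 at 10 to 50 kb and 5 at 50 to 100 kb. For 14 of the 21 the nearest protein-coding gene was a described ligand, for 1 it was another ligand gene, Ccl6, and for 6 it was no ligand gene at all.

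**Figure D1:**
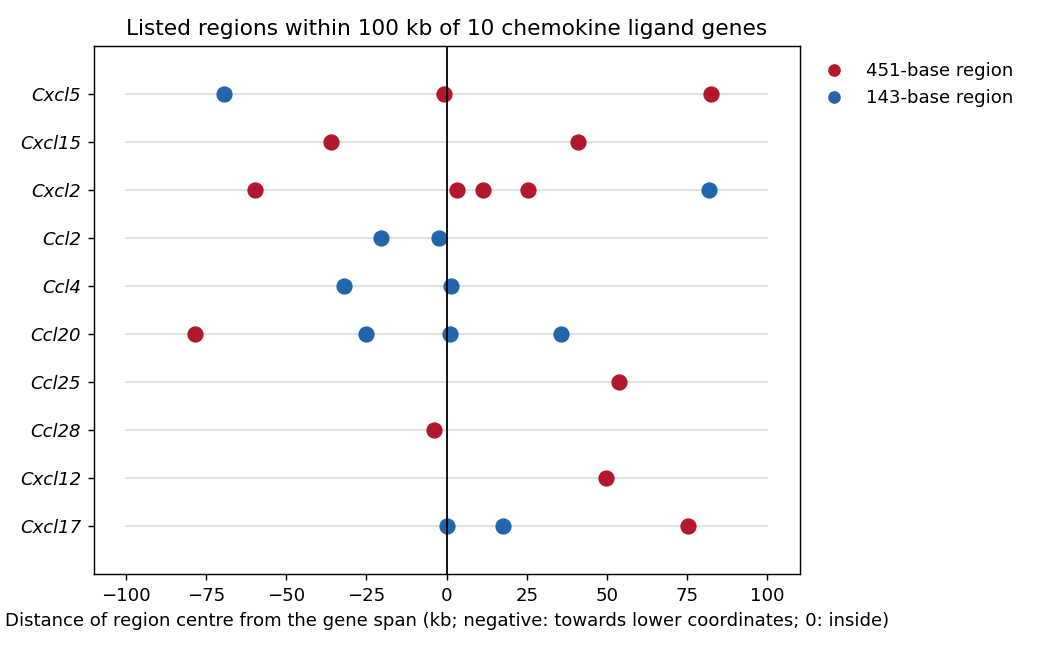
Distance in kb of each listed region centre from the span of each described ligand gene, with negative values towards lower coordinates and 0 for a region inside the gene. Red points are 451-base and blue points 143-base regions. Cxcl2 has 5 points and Ccl20 has 4, while Cxcl12, Ccl25 and Ccl28 have 1 each.

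The genes differed in how many regions they had. Of the 10, 3 had a single region, 7 had at least 2 and 4 had at least 3. Over all protein-coding genes, 42.9% had at least 1 region by the same window, 18.0% at least 2, 7.51% at least 3, 2.83% at least 4 and 1.13% at least 5. Since the rule used these positions, nothing is read from the comparison. The median distance from the gene to its nearest region was 2.80 kb for the 10 genes, 86.2 kb for the other 29 ligand genes and 134 kb over all protein-coding genes. The 10 genes were chosen by these positions, so nothing is read from these distances either. The median length was 10.7 kb for the 10 genes, 3.19 kb for the other 29 ligand genes and 17.2 kb over all protein-coding genes.

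Around the neutrophil-attracting CXC ligands of chromosome 5 lay 7 of the 21 regions. Cxcl2, Cxcl5, Cxcl1 and Cxcl3 encode ligands of CXCR2, the main chemokine receptor of neutrophils, and Cxcl15 encodes lungkine, a mouse neutrophil chemoattractant. From Cxcl5 to Cxcl2 the cluster spans chr5:90759298-90905938, or 147 kb, and holds 7 ligand genes. Only 1 listed region was centred between its first and last gene. The others lay on its flanks.

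Cxcl2 (NCBI gene 20310, chr5:90903899-90905938, plus strand) had 5 regions, 4 of 451 bases and 1 of 143 bases. The nearest, chr5:90908931-90909381, was 3.22 kb past its downstream end, and the next, chr5:90917213-90917663, was 11.5 kb past it. These were 8.28 kb apart, both 451 bases wide, and had Cxcl2 as their nearest protein-coding gene. The third, chr5:90931106-90931556, was 25.4 kb downstream of Cxcl2 and reached across a start site that the RefSeq promoter table (GRCm38.p6) places inside Mthfd2l, which encodes a mitochondrial folate enzyme. The fourth, chr5:90843851-90844301, was 59.8 kb upstream, on the far side of Cxcl1. The 143-base region, chr5:90987518-90987660, was 81.7 kb downstream and inside Mthfd2l. Thus 4 of the 5 lay on the downstream side, towards Mthfd2l and Epgn, the gene of the EGF receptor ligand epigen. Just outside the window, the next region was 451 bases wide and 121 kb away, with Epgn as its nearest gene.

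Cxcl5 (gene 20311, chr5:90759298-90761625) stands at the other end of the cluster. Its nearest region, chr5:90758154-90758604, was 451 bases wide and centred 0.919 kb outside the gene on the side of lower coordinates, away from the other ligand genes. A 143-base region, chr5:90689826-90689968, lay 69.4 kb away on the same side and was nearer to Rassf6, a Ras association domain gene. The 451-base region chr5:90843851-90844301 was 82.5 kb away on the other side. Cxcl15 (gene 20309, chr5:90794534-90803067, plus strand) had no region of its own at close range. The region beside Cxcl5 was 36.2 kb upstream of Cxcl15, and chr5:90843851-90844301 was 41.0 kb downstream of it. That downstream region stands alone in the 88.2 kb between Cxcl15 and Cxcl1, with Cxcl15 as its nearest gene and Cxcl1 at 47.2 kb.

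**Figure D2:**
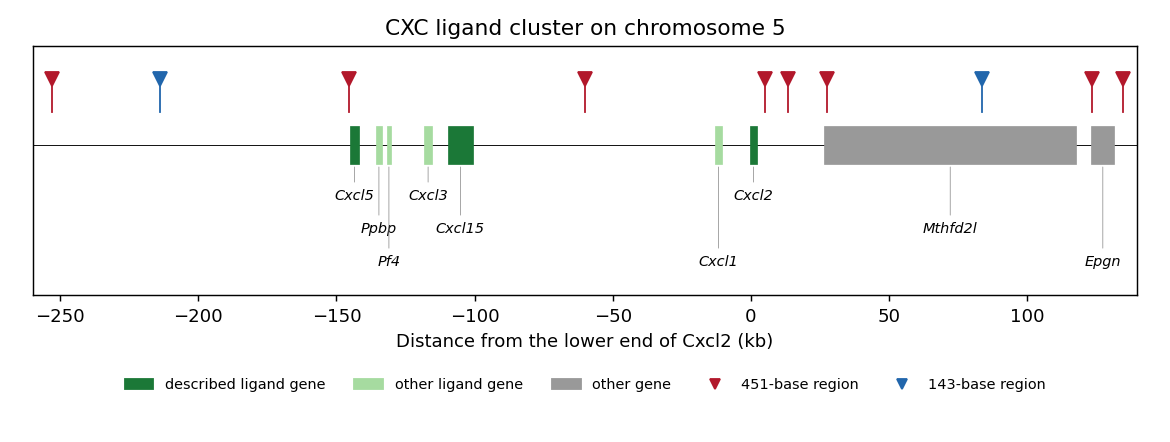
Protein-coding genes (boxes, to scale) and listed regions (triangles at their centres) around the CXC cluster of chromosome 5, in kb from the lower end of Cxcl2. The 5 regions from Cxcl5 to the start of Mthfd2l are all red, 451 bases wide, and the next on each side is blue, 143 bases wide. No triangle stands between Cxcl5 and Cxcl15.

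The 4 ligand genes of this cluster that are not among the 10 had regions in the 100 kb window only by sharing those of their neighbours. Ppbp and Pf4, which encode platelet chemokines, and Cxcl3 each had 3, and Cxcl1 had 5. The closest region was 10.1 kb from Ppbp, 14.1 kb from Pf4, 27.7 kb from Cxcl3 and 16.0 kb from Cxcl1. None of the 4 was the nearest protein-coding gene of any region. The gaps between Cxcl5, Ppbp, Pf4, Cxcl3 and Cxcl15 (6.89, 2.37, 12.7 and 6.44 kb) held no region, and neither did the 10.8 kb between Cxcl1 and Cxcl2. The 5 regions from Cxcl5 to the start of Mthfd2l were all 451 bases wide. The next region on each side was 143 bases wide, so the ends of that stretch follow the widths. Of all 7 regions near the described genes of chromosome 5, 5 were 451 bases wide (71.4%). Of all listed regions on chromosome 5, 42.4% were, and the difference was not tested.

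The promoters of Cxcl2 and its neighbours were read from the RefSeq table of GRCm38.p6, the assembly that mm10 follows on these chromosomes, which gives 250 bases before and 50 after a start site and matched 6 of the 10 genes and 29 of the 39 ligand genes. The motifs searched on both strands were NF-kB (GGGNN followed by TTTCC), AP-1 (TGANTCA), CRE (TGACGTCA), STAT (TTCNNNGAA), C/EBP (TTNNGCAA), IRF (GAAANN followed by GAAA), the TATA box (TATAAA) and the androgen response element (GNACANNN followed by TGTNC), with N for any base, and a stretch that matched on both strands counted once. The NF-kB letters were in the promoters of 2 of the 6 described genes, Ccl20 and Cxcl2, and of 5 of the 29 ligand genes (17.2%), the others being Cxcl1, Cxcl3 and Ccl9. They were in 1.63% of the 32851 promoters of the table and in 1 of 19 receptor genes. With only the forward strand of the build searched, 1 of the 6 and 4 of the 29 had them. Cxcl1, Cxcl2 and Cxcl3 lie in the same cluster and share an identical match, so they are not independent, and these shares were not tested. The 120 bases before the start site are shown for Ccl20, Cxcl2, Cxcl1 and Cxcl3, with the NF-kB letters in capitals, and for Cxcl15, which has none in its promoter window. All are on the plus strand, at chr1:83116646-83116765 for Ccl20, chr5:90903779-90903898 for Cxcl2, chr5:90891125-90891244 for Cxcl1, chr5:90785981-90786100 for Cxcl3 and chr5:90794414-90794533 for Cxcl15.
Ccl20: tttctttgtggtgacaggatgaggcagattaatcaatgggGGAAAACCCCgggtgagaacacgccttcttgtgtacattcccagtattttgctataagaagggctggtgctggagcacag
Cxcl2: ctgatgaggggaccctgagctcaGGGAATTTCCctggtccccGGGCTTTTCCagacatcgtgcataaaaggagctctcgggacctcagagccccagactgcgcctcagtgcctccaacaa
Cxcl1: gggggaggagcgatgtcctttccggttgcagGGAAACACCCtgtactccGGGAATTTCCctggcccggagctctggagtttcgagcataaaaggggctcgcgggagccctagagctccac
Cxcl3: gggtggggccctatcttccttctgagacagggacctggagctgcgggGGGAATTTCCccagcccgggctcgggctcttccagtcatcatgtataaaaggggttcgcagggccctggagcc
Cxcl15: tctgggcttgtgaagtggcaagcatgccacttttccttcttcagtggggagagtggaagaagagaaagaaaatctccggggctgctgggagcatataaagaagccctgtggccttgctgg
Cxcl2 and Cxcl1 each carried 2 matches and Ccl20 and Cxcl3 1 each. In Cxcl2 they began at -97 and -78, counted in bases before the start site, and in Cxcl1 at -89 and -71. That of Cxcl3 began at -73 and that of Ccl20 at -80. The matches of Ccl20 and the first of Cxcl1 read on the strand opposite the gene. No listed region reached any of these 5 promoters, and the region nearest to the start site was 5.26 kb from it at Cxcl2 and 3.36 kb from it at Ccl20. A match of letters is not evidence of binding.

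Other motifs were also present in some ligand promoters. The TATA letters were in 11 of 29 ligand genes (37.9%, against 13.6% of all promoters), Cxcl15 and Ccl25 among the described ones. They began at -27 in Cxcl15 and at -16 in Ccl25. A match counted at any position of the promoter window and on either strand, such as that at -195 in Cxcl9. AP-1 letters were in 7 of 29 (24.1%, against 7.81%), with Ccl28 the described one, where they begin at base 21 after the start site. C/EBP letters were in 5 of 29 (17.2%, against 10.8%), IRF letters in 3 (10.3%, against 3.44%) and STAT letters in 2 (6.90%, against 8.30%), none of them a described gene. CRE and androgen response element letters were in 0 of 29, against 1.79% and 0.475% of all promoters. The ligand counts are of genes, some with several start sites, and the shares of all promoters are of start sites. None of these shares was tested.

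The CC ligands of chromosome 11 had 143-base regions only. Ccl2 encodes MCP-1, which recruits monocytes through CCR2, and Ccl4 encodes MIP-1 beta, an attractant of monocytes and T cells. Both lie in clusters of inflammatory CC genes, and each had 2 regions. On chromosome 11 as a whole, 72.5% of the 305 listed regions were 143 bases wide, so that width is the common one there.

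Ccl2 (gene 20296, chr11:82035577-82037452) had regions at chr11:82033122-82033264 and chr11:82015205-82015347, centred 2.38 and 20.3 kb outside the gene and 17.9 kb apart. Both were on the side of lower coordinates, away from the other 5 ligand genes of the cluster, and both had Ccl2 as nearest gene. No region lay in the cluster itself, from Ccl2 to Ccl1, a stretch of 144 kb. The neighbours Ccl7, Ccl11, Ccl12 and Ccl8 had a nearest region at 12.5, 24.6, 68.7 and 82.0 kb, in each case the one beside Ccl2, and Ccl1 had none within 100 kb, with its nearest at 143 kb. Ccl7, Ccl11, Ccl12 and Ccl8 encode chemoattractants of monocytes and eosinophils. Beyond the pair at Ccl2, the next listed region was 1027 kb from the gene.

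Ccl4 (gene 20303, chr11:83648624-83664683) had a region at chr11:83665936-83666078, centred 1.32 kb outside it on the side of higher coordinates, and another at chr11:83616692-83616834, 31.9 kb outside it on the other side. The annotated span of Ccl4 overlaps that of Ccl3, which encodes the related MIP-1 alpha, so distances to Ccl4 and Ccl3 are not independent, and Ccl3 was 16.6 kb from the first region. The second region lies inside the long non-coding RNA gene E230016K23Rik, in the 54.8 kb between Ccl6 and Ccl3, and was nearer to Ccl6 (23.7 kb) than to Ccl3 (31.1 kb). Ccl6 was therefore the nearest gene of a region although it is not among the 10. Ccl9 was 38.1 kb and Ccl5, the gene of RANTES, 86.2 kb from their nearest region, and neither was the nearest gene of one.

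**Figure D3:**
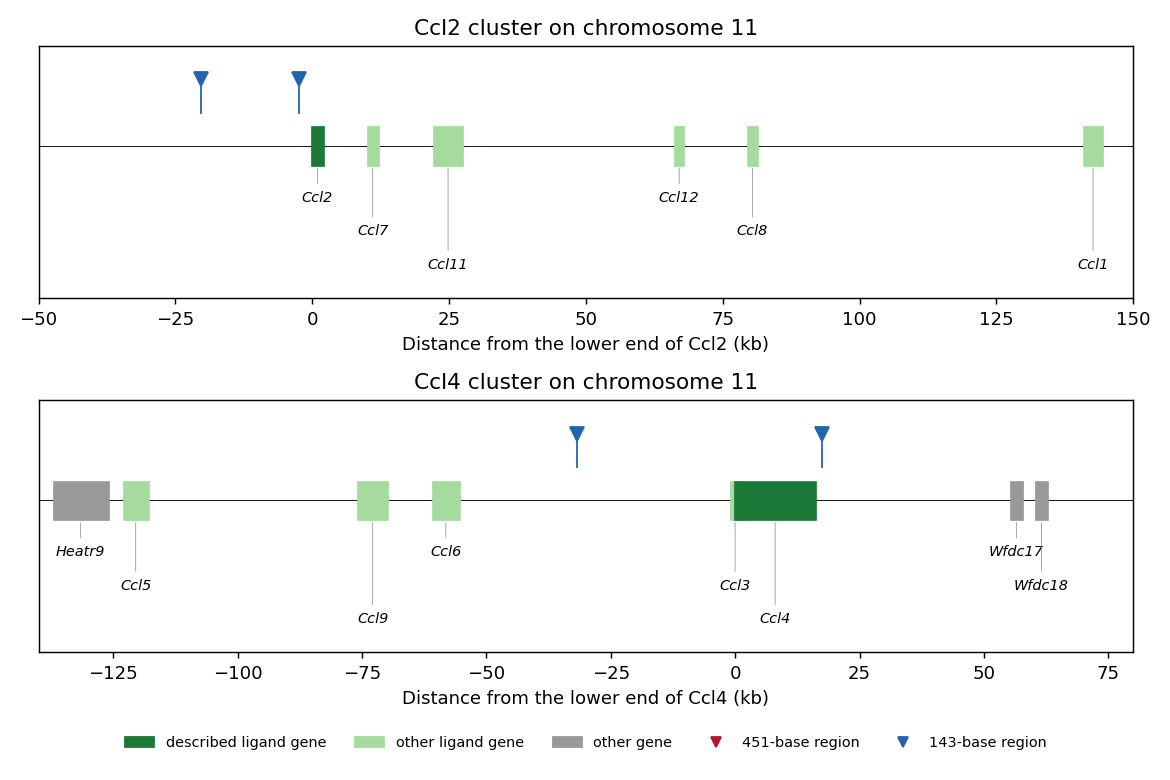
Protein-coding genes (boxes, to scale) and listed regions (triangles at their centres) around the Ccl2 cluster (top, kb from the lower end of Ccl2) and the Ccl4 cluster (bottom, kb from the lower end of Ccl4) of chromosome 11. Both regions of the Ccl2 cluster stand to the left of Ccl2. All 4 triangles are blue, 143 bases wide.

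Epithelial CC ligands that stand apart from the clusters had between 1 and 4 regions. Ccl20, the ligand of CCR6, is made by epithelia and attracts Th17 cells, B cells and immature dendritic cells. The gene (gene 20297, chr1:83116766-83119167, plus strand) had 4 regions. The nearest, chr1:83120057-83120199, was centred 0.961 kb past its downstream end, and chr1:83091454-83091596 was 25.2 kb upstream. Both were 143 bases wide with Ccl20 as nearest gene. Another of 143 bases, chr1:83154861-83155003, was 35.8 kb downstream but 4.81 kb from Daw1, an axonemal dynein assembly gene. These 3 stood at intervals of 28.6 and 34.8 kb, and no other ligand gene of the list was placed within 500 kb of Ccl20.

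The fourth region near Ccl20, chr1:83038199-83038649, was 451 bases wide, 78.3 kb upstream and across a start site of Slc19a3, which encodes a thiamine transporter. It and the region at Mthfd2l were the 2 of 21 that overlapped a promoter window of the RefSeq table (GRCm38.p6), and neither window belongs to a chemokine gene.

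Ccl28, an epithelial ligand of CCR10 and CCR3 in mucosa and glands, had a single region. It was 451 bases wide, at chr13:119619603-119620053, and centred 3.99 kb upstream of the gene (gene 56838, chr13:119623819-119654359, plus strand). The next gene, Tmem267, was 9.37 kb from that region, and the next listed region was 215 kb from Ccl28. Ccl25, the ligand of CCR9 known from thymus and small intestine, also had a single 451-base region, chr8:4413454-4413904. It was 53.7 kb past the downstream end of the gene (gene 20300, chr8:4325205-4360020, plus strand), with no protein-coding gene nearer than Ccl25.

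The CXC ligands outside the cluster differed from each other. Cxcl12 encodes SDF-1, the homeostatic ligand of CXCR4 and ACKR3, and had 1 region of 451 bases, chr6:117230724-117231174, 49.6 kb past the downstream end of the gene (gene 20315, chr6:117168535-117181368, plus strand). No other protein-coding gene lay within 100 kb of Cxcl12, and after Cxcl12 the gene nearest to the region was Tmem72, at 514 kb. Cxcl17, a mucosal ligand linked to macrophage recruitment, was the only one of the 10 with a region inside its span. That region, chr7:25411220-25411362, was 143 bases wide in a gene at chr7:25400053-25412886 (gene 232983). The table gives no exons, so it cannot be placed in an exon or an intron. A second 143-base region, chr7:25430412-25430554, was 17.6 kb outside Cxcl17, and a 451-base region, chr7:25487744-25488194, was 75.1 kb outside it and closer to Ceacam1, a cell adhesion gene (10.3 kb). All 3 lie inside the long non-coding RNA gene 4732471J01Rik.

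By strand, which the promoter table gives for 6 of the 10 genes, 9 of 14 gene and region pairs were downstream and 5 upstream. The region between Cxcl15 and Cxcl1 counts in both, as downstream of Cxcl15 and upstream of Cxcl2. No such share was taken over all genes, and nothing is read from the split. A 451-base region lay in the window of 8 of the 10 genes and of 19.8% of all protein-coding genes, and a 143-base region in that of 6 and of 29.1%. Of the 10 genes, 4 had 451-base regions only (Cxcl15, Cxcl12, Ccl25 and Ccl28) and 2 had 143-base regions only (Ccl2 and Ccl4). The other 4 had both (Ccl20, Cxcl5, Cxcl2 and Cxcl17), as did 6.03% of all protein-coding genes. The 10 genes were chosen with their regions in this window known, so nothing is read from these comparisons. At the limit of the window, the farthest region inside was that 82.5 kb from Cxcl5. The nearest one outside the window of a gene was 105 kb from Cxcl15, and it is counted at Cxcl5. The nearest one in no window of the 10 genes was 108 kb from Cxcl5.

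Set among all 39 ligand genes, the 10 were those, with Ccl6, that were the nearest protein-coding gene of a region within 100 kb, a property of 11 of 39 ligand genes and of 17.0% of all protein-coding genes. With every region in the window counted, 27 of 39 ligand genes (69.2%) had one, against 42.9% of all protein-coding genes. Within 50 kb it was 19 (48.7%, against 29.9%), within 25 kb 14 (35.9%, against 21.2%) and within 10 kb 7 (17.9%, against 15.3%), a share near that of all genes. The 7 were all among the 10 described, which were chosen by these positions. Genes of a cluster share regions, and these shares were not tested. With ligand genes less than 500 kb apart taken as 1 locus, 12 of 16 loci had a region. A locus of several genes has more room for a region than 1 gene. No share of loci was taken over all genes, so the count is not set against the 42.9%. Of 23 CC ligands 16 had one, and of 14 CXC ligands 11.

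**Figure D4:**
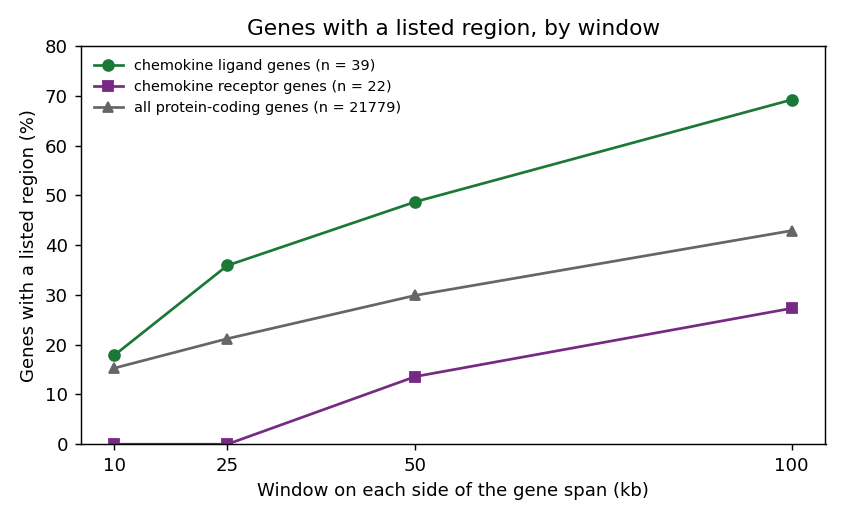
Share of genes in percent with a listed region centre inside the span or within a window of 10, 25, 50 or 100 kb on each side, for 39 chemokine ligand genes, 22 chemokine receptor genes and all protein-coding genes. At 10 kb the ligand genes stand at 17.9% and all genes at 15.3%, and at 100 kb at 69.2% and 42.9%, while receptor genes stay below all genes at each window.

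No region lay within 100 kb of 12 of the 39 ligand genes, Ccl1 among them. On chromosome 4, Ccl19 and Ccl21a, the ligands of CCR7, had their nearest at 758 and 741 kb, and Ccl21b and Ccl27b had their nearest at 475 and 859 kb. Of that group Ccl27a alone had one in the window, at 70.9 kb and nearer to Cntfr. Genes there have near-identical copies where short reads are hard to place, and whether this bears on the list was not tested. On chromosome 8, Ccl22 and Cx3cl1 had none (nearest at 153 and 122 kb), and Ccl17 had one at 91.9 kb, inside Ccdc102a. Ccl24 and Ccl26, which encode eotaxins, had their nearest at 98.0 and 108 kb, the same region inside Por, on either side of the limit. Cxcl13, Cxcl14, Cxcl16 and Xcl1 had theirs at 371, 421, 161 and 138 kb. The interferon-induced ligand genes Cxcl9 and Cxcl10 had a 451-base region inside Art3 at 62.7 and 41.9 kb, and neither was its nearest gene.

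Ligands act through receptors that leukocytes carry for the most part, while CXCR4 and ACKR3 are also found on epithelial and stromal cells. Of 22 receptor genes, 6 had a listed region within 100 kb (27.3%, against 42.9% of all protein-coding genes), and none had one within 25 kb, against 21.2% of all protein-coding genes. These shares were not tested, and 6 of the receptor genes (Ccr1, Ccr2, Ccr3, Ccr9, Cxcr6 and Xcr1) lie together on chromosome 9. All 7 regions in the windows of receptor genes were 143 bases wide, against 49.4% of all listed regions. On chromosome 11, which holds Ccr7 and Ccr10, 72.5% of listed regions had that width, and on chromosome 1, which holds Cxcr4 and Ackr3, 48.5% had it. No such share was taken on chromosome 9, which holds Ccrl2 and Cxcr5. Among 8 receptors known for these ligands, Ackr3, Ccr10 and Cxcr4 had a region, at 25.8, 52.9 and 79.4 kb. Cxcr4 was the nearest gene of its region. The receptor genes Ccr6, Cxcr2 and Ccr2 had none in the window. The nearest region was 236 kb from Ccr6, 566 kb from Cxcr2 and 170 kb from Ccr2. Ccr9 had its nearest at 108 kb and Ccr3 at 248 kb. Ccrl2, Cxcr5 and Ccr7 were the other receptor genes with a region, at 28.0, 41.3 and 67.3 kb.

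**Figure D5:**
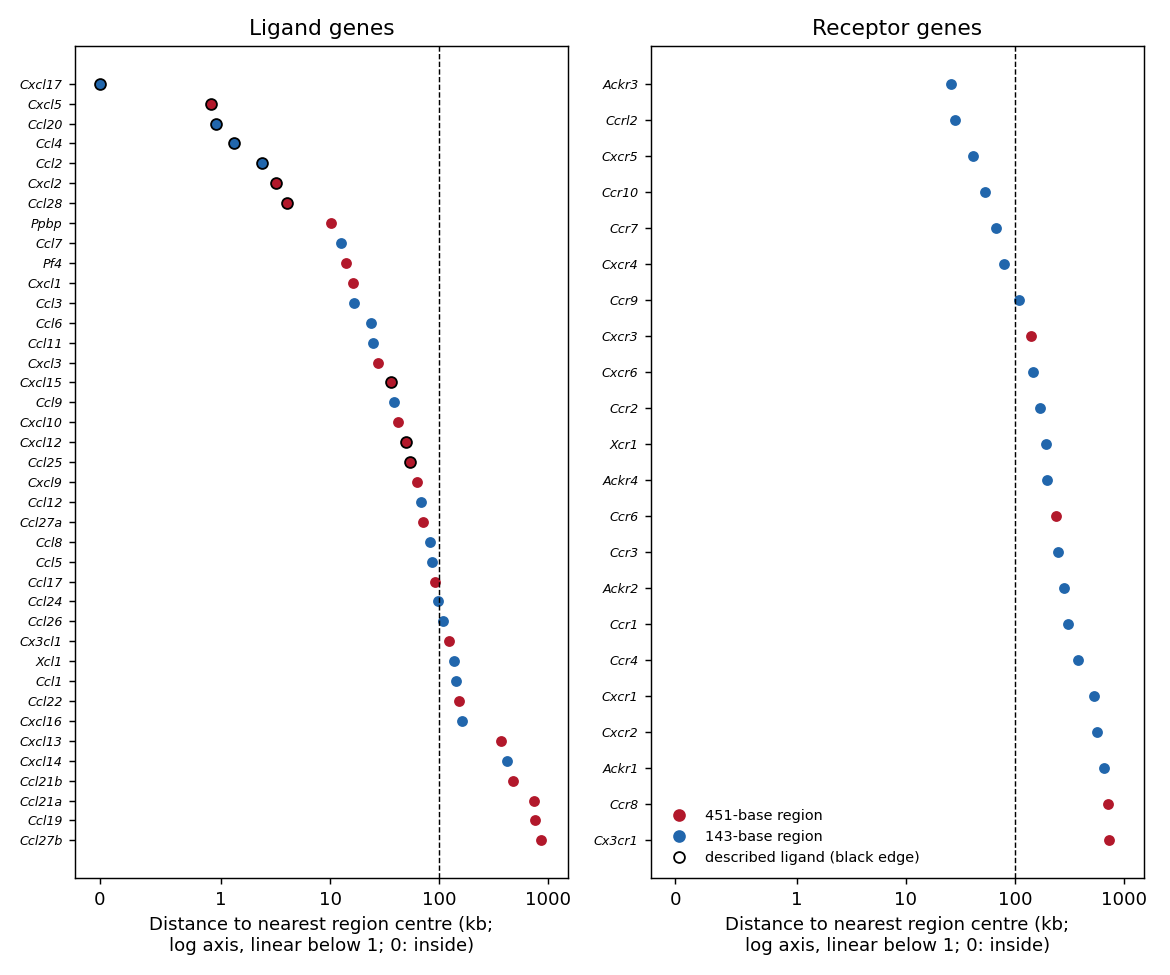
Distance in kb from each of 39 ligand genes (left) and 22 receptor genes (right) to the nearest listed region centre, on a log axis that is linear below 1 kb, with 0 for a region inside the gene and a dashed line at 100 kb. Colours give the width of that region and black edges the 10 described genes. The 7 ligand genes within 10 kb all have black edges, and the genes with black edges were chosen by these positions. The nearest receptor gene, Ackr3, stands at 25.8 kb.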

How the data were processed

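ATAC-seq was measured in 3 inflamed and 3 naive libraries of sorted prostate basal stem cells. The values deposited by the authors are genome positions, a chromosome, a start and an end per region, with no other number and no value per library. BWA 0.7.17-r1188 and HOMER 4.8 are named beside edgeR and SAMtools, with build mm10, per the submitters' processing notes. Their order, thresholds, filters and any pooling are not given in the sources used here. Depth per library is unknown, and regions just short of a filter cannot be seen.

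Starts, counted from 0 in the list, are printed from 1. Regions were placed by their centre against gene spans of RefSeq assembly GRCm38.p6, and 108 protein-coding rows that start before 3 Mb on chromosomes 1 to 19 or X, where mm10 has no sequence, were left out as unplaced. Of 41 ligand symbols 39 had a placed protein-coding row, and Cxcl11 and Ccl21c had none. The 22 receptor symbols used all had one, and 1 more receptor gene is not reported here. Distances are to the gene span unless a start site is named. Where the promoter table has no row for a gene, no strand and no distance to a start site is given. Promoter sequences are those of the RefSeq table (GRCm38.p6). Counting and figures used Python 3.11.15 and matplotlib 3.10.9. Window counts and nearest distances were tested on simulated regions, where 500 of 500 genes matched a plain search, and 200 of 200 planted motifs were found. Nothing was tested between groups. The genes and lists were chosen with earlier results of these data known. The text names the 10 genes, the other ligands by cluster, the receptors of the 10 ligands, receptors with a region within 10 kb (there were none) and the nearest gene of each region. The other receptor genes with a region in the window, and the ligand genes outside clusters, were named after their values were seen.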

Additional observations from a re-analysis of the deposited data

How the results depend on the processing

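No paired analysis was possible because there are no values per library, and for the same reason no library could be left out in turn. The counts of genes are set by the window. Of the 21 regions near the described genes, 16 remained within 50 kb, 10 within 25 kb and 7 within 10 kb. Of the 10 genes, 9 had a region within 50 kb and 7 within 25 or 10 kb, and with 143-base regions alone 6 had one, against 8 with 451-base regions alone. The 27 ligand genes with a region became 14 within 25 kb, 7 within 10 kb, 11 with only the nearest gene counted and 16 with 451-base regions alone. The 6 receptor genes became 3 within 50 kb, 0 within 25 kb and 0 within 10 kb, 2 with only the nearest gene counted and 0 with 451-base regions alone. The 9343 protein-coding genes became 4619 within 25 kb, 3322 within 10 kb, 3708 with only the nearest gene counted and 4309 with 451-base regions alone. The NF-kB letters were in 2 described promoters on both strands and in 1 on the forward strand of the build. Fewer regions, pairs of gene and region, or strands enter under each of these settings by construction. With ligand genes within 500 kb merged into 1 locus, 12 of 16 loci (75.0%) had a region, against 27 of 39 ligand genes (69.2%). The lower count is therefore of fewer units, and no share of loci was taken over all genes. Counting any base of a region in place of its centre left 21 regions and 10 genes, and merging regions within 1 kb left 21. The width settings for receptors and the width and nearest-gene settings for all genes were added after seeing the data. Without depth or signal per library, a region that is absent from the list is not shown to be closed or equal in both groups.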
